A study of Mus musculus with 2 samples.

Results

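The NF-κB subunits and their inhibitors were followed at the RNA level across an early step of mouse B cell development. The 10 genes were set by name, with no threshold on their values, though earlier results of these data were known: the subunits *Nfkb1*, *Nfkb2*, *Rel*, *Rela* and *Relb*, the inhibitors *Nfkbia*, *Nfkbib* and *Nfkbie*, the nuclear cofactor *Bcl3*, and *Tnfaip3*, a ubiquitin-editing brake of the pathway. They are represented by 13 of the 26968 protein-coding RefSeq transcripts measured, and by 10 of 20247 genes. One library was made from Ebf1 -/- pre-pro-B cells, and another from Rag2 -/- pro-B cells, both on a C57BL/6 background. *Ebf1* null cells lack a transcription factor needed to enter the B lineage, whereas *Rag2* null cells enter the lineage but cannot rearrange their immunoglobulin genes. The *Ebf1* null cells came from female fetal liver and were grown with Il-7, Scf and Flt3l, and the *Rag2* null cells came from male adult bone marrow and were grown with Il-7 alone. Both cultures were kept on OP-9 stromal cells, from which the floating cells were washed and left to shed residual stroma before RNA extraction. Stage, genotype, sex, age, tissue and cytokines therefore cannot be told apart, and with 1 library per cell type no difference has a replicate check or a p-value.

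NF-κB proteins bind DNA as dimers of the subunits. In resting cells the IκB proteins hold the dimers in the cytoplasm, and when receptors activate the IκB kinase (IKK) complex, the IκB proteins are phosphorylated and degraded and the dimers enter the nucleus. Several genes of the pathway are themselves known targets of NF-κB, and in the B lineage the subunits are best known for their roles in the survival and activation of B cells.

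Promoter windows of the members were searched for κB sites, the 10-base elements that NF-κB dimers bind, because genes of the pathway are known to be controlled through them. RefSeq promoter windows, which cover 250 bases before and 50 bases after a start site on GRCm38, were held for 8 of the 10 genes, in 11 windows. *Nfkb1* and *Relb* had no entry. A match to the κB consensus on either strand was found in 8 of the 11 windows and in 6 of the 8 genes. Over all promoters, 4.51% of the 32851 windows and 1388 of the 27025 genes hold a match. The looser pattern GGGNNNNNCC was found in 10 of the 11 windows and in 50.8% of all windows. The windows of *Rela* and *Nfkbib*, and a further window of *Tnfaip3*, held no match to the consensus. Some windows of *Nfkb2* overlap and share a match, which is counted in each, so the windows are not separate finds. The sites below are shown with 8 flanking bases on each side, 5′ to 3′ on the strand of the gene, with the κB match in capitals. They stand for the members whose RNA levels are described next, and a match says only that these letters are present.
Nfkbia, 29 bases before the start, chr12:55492659-55492684, minus strand: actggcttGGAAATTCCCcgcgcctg
Nfkb2, 39 bases before the start, chr19:46304690-46304715, plus strand: atcgtcacGGGAATTCCCcccctcgg
Rel, 92 bases before the start, chr11:23771044-23771069, minus strand: taagcagcGGGAAATCCCcccccctc
Nfkbie, 106 bases before the start, chr17:45555586-45555611, plus strand: agcaaacaGGGGGATTCCggaggggc
Tnfaip3, 12 bases before the start, chr10:19015405-19015430, minus strand: tttccatcGGAAATCCCCctgttggc
Bcl3, starting 3 bases into the transcript, chr7:19822736-19822761, minus strand: ggcggcagGGGAAGTCCCgctgcccg

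Levels are given as FPKM, a density of reads scaled to transcript length and library depth, with the limits of the 95% interval that Cuffdiff set around each. The intervals come from a model of a single library and are wide. For the 12 member transcripts with an interval above 0 in pre-pro-B cells, the width was 1.86 to 4.37 times the FPKM itself. At the nominal depth of about 90000000 reads per library, the same FPKM would correspond to 284 to 18026 reads per transcript, leaving out a trace *Nfkb2* transcript described with that gene. Coordinates of the genes are those of the mm9 build.

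Markers of the cell types were examined in the same libraries. All 8 B lineage markers were higher by 2-fold or more in pro-B cells, with sums of 8.44 FPKM in the pre-pro-B library against 2907 FPKM in the pro-B library, and 3 of 4 progenitor markers were lower (sums 944 and 2.82), with *Gata2* listed at 0 in both. Myeloid markers differed as well, and 5 of 8 were lower by 2-fold or more in pro-B cells, in the same direction as the subunits (sums 527 and 7.91, most of the former from *Tyrobp* at 463), while *Elane* and *Ctsg* were listed at 0 in both. All 5 T lineage markers were lower in pro-B cells, 3 of them by 2-fold or more (sums 76.5 and 3.13). Nearly all of the former sum came from *Lck* at 38.0 FPKM and *Cd3g* at 36.8 FPKM. The 8 stromal markers summed to 19.98 and 15.7, but most of the former came from *Pdgfrb* (15.9 against 0.377 FPKM). It was the 1 stromal marker that was lower, whereas 6 were higher in pro-B cells by any amount, 3 of them by 2-fold or more, and *Postn* was listed at 0 in both. The 4 erythroid markers found summed to 0.449 and 0.196, with *Hba-a1* among those listed at 0 in both. The part of other cell types in the subunit levels given next was not tested, and in bulk RNA fewer cells of a type and less RNA per cell cannot be told apart. The targeted genes themselves were not at 0. *Ebf1* stood at 64.0 FPKM in the library labelled Ebf1 -/- against 273 FPKM in the other, and *Rag2* at 22.9 FPKM in the library labelled Rag2 -/- against 34.5 FPKM in the other. These values cover the whole transcript and do not show which part of a gene was read.

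The most abundant subunit in pre-pro-B cells was *Nfkb1* (chromosome 3, 135247619 to 135354511), whose precursor protein yields a subunit that pairs with the *Rela* product. Its single transcript stood at 48.6 FPKM (95% limits 1.94 and 129) in the pre-pro-B library against 13.0 FPKM (95% limits 1.08 and 34.5) in the pro-B library. The level was 3.74-fold lower in pro-B cells, a difference of -1.82 on the log2(FPKM + 1) scale used for all differences here. Among the 10525 genes that reached 1 FPKM in either library, 8.60% had a more negative difference. The intervals nevertheless overlapped, and their outer limits allow anything from 0.00840 to 17.8 times the pre-pro-B level.

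*Rela* and *Rel* encode the subunits that carry a transactivation domain in classical NF-κB dimers. *Rela* (chromosome 19, 5637483 to 5648130) stood at 22.3 FPKM (95% limits 1.66 and 43.1) in the pre-pro-B library against 12.4 FPKM (95% limits 0.467 and 26.9) in the pro-B library. *Rel* (chromosome 11, 23641514 to 23670970) stood at 11.4 FPKM (95% limits 0.382 and 27.2) against 6.15 FPKM (95% limits 0.0612 and 15.7), in the same order. The 2 genes were lower in pro-B cells by almost the same amount, -0.79 each on the log2 scale, and the ratio of *Rela* to *Rel* FPKM was 1.96 and 2.02 in the pre-pro-B and the pro-B library. Both differences lay within 2-fold and within overlapping intervals.

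Of the 5 subunits, those of the alternative pathway were the scarcest. *Nfkb2* (chromosome 19, 46379227 to 46386580), whose product is processed on activation of that pathway, summed to 4.59 FPKM in the pre-pro-B library against 3.34 FPKM in the pro-B library. Its transcripts NM_019408 (FPKM 2.50 and 1.77) and NM_001177369 (2.09 and 1.57) held nearly all of this in close to equal parts, and NM_001177370 stood below 0.001 in both libraries. *Relb* (chromosome 7, 20191566 to 20214787), the usual partner of the *Nfkb2* product, stood at 1.93 FPKM (95% limits 0 and 5.44) in the pre-pro-B library against 0.911 FPKM (95% limits 0 and 2.87) in the pro-B library. That is a 2.12-fold lower level, but a difference of only -0.62 with the pseudocount of 1. All 5 subunits were thus lower in pro-B cells, with a median difference of -0.79, while 57.4% of the genes that reached 1 FPKM in either library were lower by any amount and their median difference was -0.14.

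**Figure D1:**
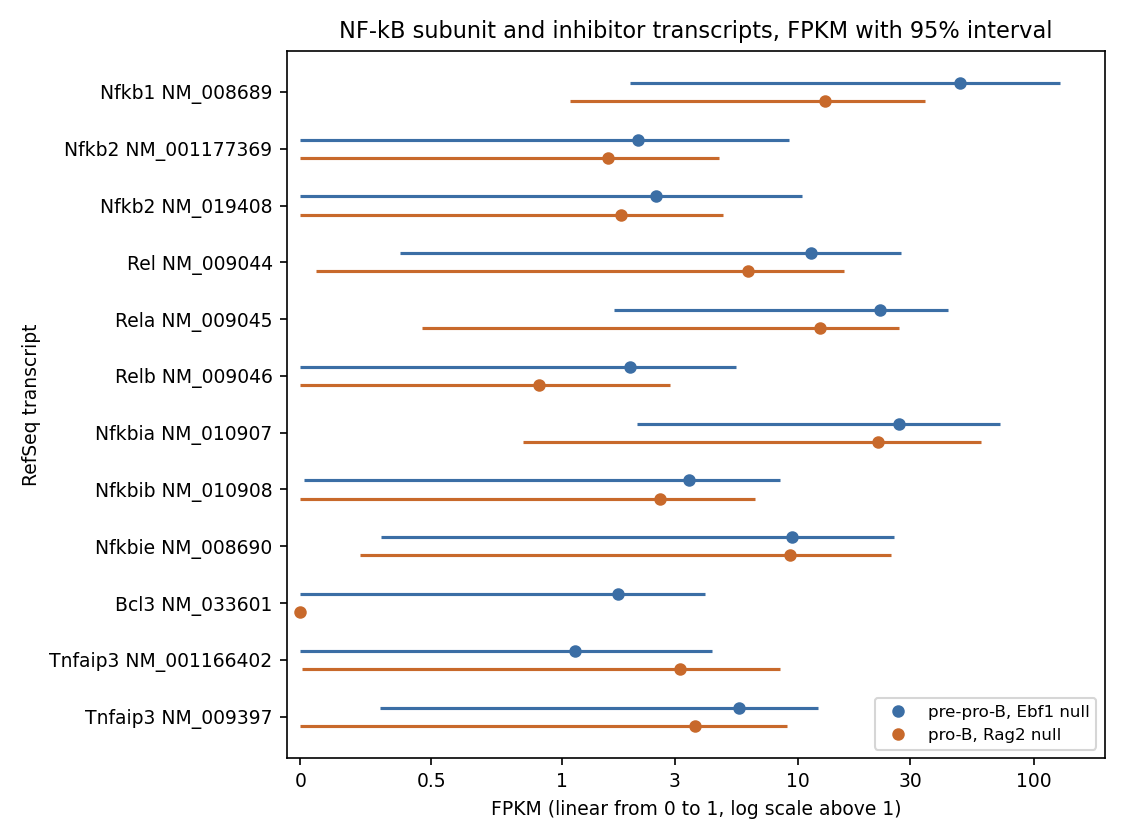
FPKM of 12 member transcripts (points) with Cuffdiff's 95% interval (lines) in the pre-pro-B library (blue) and the pro-B library (orange), on an axis that is linear from 0 to 1 and logarithmic above. Among transcripts above 0 in both libraries *Nfkb1* shows the widest gap, 48.6 against 13.0, and the intervals of every pair share part of their range, for *Bcl3* only at 0.

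Each of the 3 IκB inhibitors showed a smaller difference between the libraries than any of the subunits, with no test of this contrast possible. *Nfkbia* (chromosome 12, 56590398 to 56593634), which encodes IκBα, the inhibitor that NF-κB itself induces, stood at 26.7 FPKM (95% limits 2.08 and 71.8) in the pre-pro-B library against 21.9 FPKM (95% limits 0.851 and 59.7) in the pro-B library. Its promoter window holds a κB match close to the start, as printed with the sites. It was the second most abundant member in pre-pro-B cells and the most abundant in pro-B cells. *Nfkbie* (chromosome 17, 45692665 to 45700118), which encodes IκBε, stood at 9.41 FPKM (95% limits 0.310 and 25.6) against 9.21 FPKM (95% limits 0.228 and 24.9). *Nfkbib* (chromosome 7, 29543270 to 29552531), which encodes IκBβ, stood at 3.44 FPKM (95% limits 0.0162 and 8.39) against 2.61 FPKM (95% limits 0 and 6.59). The differences were -0.27 for *Nfkbia*, -0.03 for *Nfkbie* and -0.30 for *Nfkbib*, all within 2-fold. The sign of *Nfkbie* turned to 0.05 when the libraries were scaled by their median ratio.

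*Bcl3* (chromosome 7, 20393811 to 20408119), an IκB family protein that acts in the nucleus as a partner of NF-κB homodimers, stood at 1.72 FPKM (95% limits 0 and 4.03) in the pre-pro-B library. In pro-B cells it was listed at 0, with both limits at 0. Cuffdiff gave this estimate the status OK in both libraries, but a listed 0 may not mean absence in these data. The ribosomal protein gene *Rps27*, which every cell uses, was listed at 0 (95% limits 0 and 0.449) in pre-pro-B cells. In pro-B cells *Rps27* stood at only 1.10 FPKM. Its transcript has 346 bases against 1835 for *Bcl3*, so the 2 genes may not be alike in this. At the stated depth, 3 reads would have given *Bcl3* 0.0182 FPKM. The κB match of its window lies just inside the transcript. *Bcl3* lies 179 kb from *Relb* on chromosome 7. By FPKM these were the 2 least abundant members in both libraries. Overlapping intervals leave that order unresolved in pre-pro-B cells, and the place of *Relb* unresolved in pro-B cells as well. A link between position and level was not tested.

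*Tnfaip3* (chromosome 10, 18720716 to 18735463), which encodes the ubiquitin-editing enzyme that ends NF-κB signaling, summed to 6.73 FPKM in the pre-pro-B library against 6.82 FPKM in the pro-B library, a difference of 0.02. Its 2 transcripts differed in opposite directions within this sum. NM_009397 stood at 5.59 FPKM (95% limits 0.304 and 12.1) in the pre-pro-B library against 3.65 FPKM (95% limits 0 and 8.94) in the pro-B library. NM_001166402 stood at 1.14 FPKM (95% limits 0 and 4.32) against 3.17 FPKM (95% limits 0.00768 and 8.36). The share of NM_009397 in the gene was accordingly 83.1% and 53.5%. The sign of the gene's difference depends on these transcripts, because with the more abundant transcript alone it was -0.50, and it was also negative with TPM scaling.

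Of the 10 members, 2 were lower by 2-fold or more in pro-B cells, *Nfkb1* and *Bcl3*, and 0 were higher by 2-fold or more. Among all protein-coding genes 9.93% were lower and 6.34% were higher by this rule, and among those that reached 1 FPKM in either library, which all 10 members reach, 19.1% and 12.2%. A count of 2 in 10 is thus close to the share of expressed genes in general. The Cuffdiff intervals of the 2 libraries stood apart for 0 of the 13 member transcripts, against 3.01% of the 18867 protein-coding transcripts above 0 in a library. The median difference was -0.49 over the 10 members, -0.27 over the inhibitors, *Bcl3* and *Tnfaip3*, and -0.14 over the expressed genes.

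**Figure D2:**
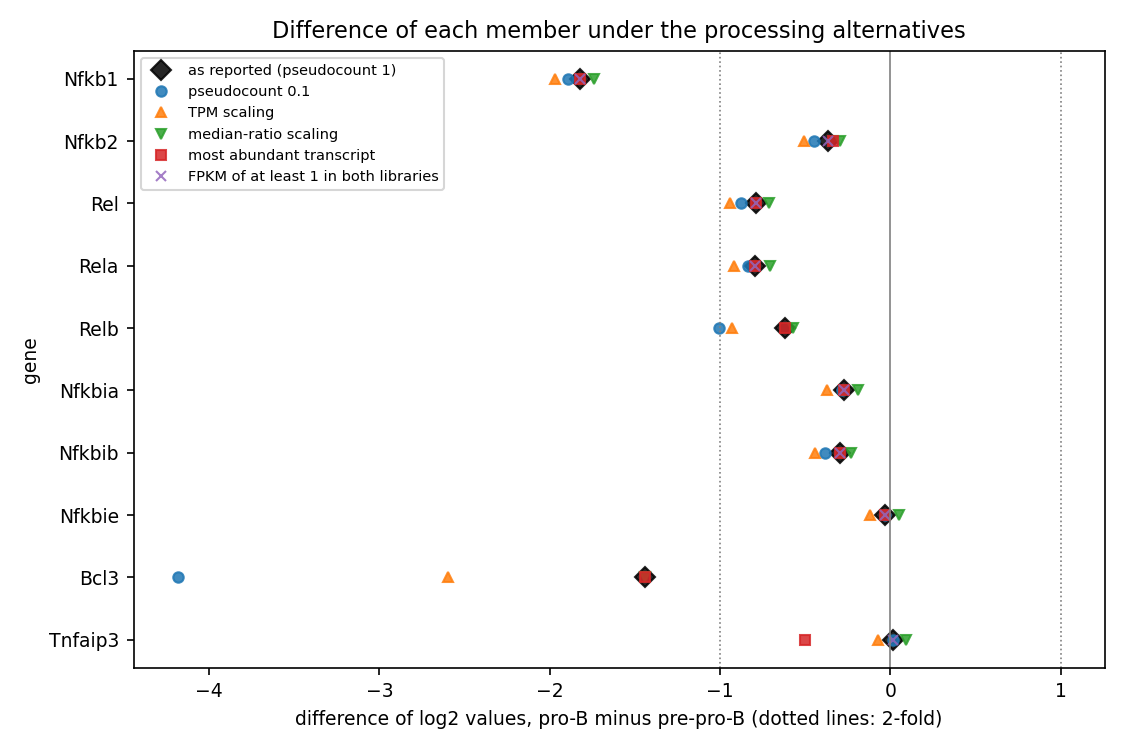
Difference of each member on a log2 scale, pro-B minus pre-pro-B, as reported (black diamonds, log2(FPKM + 1)) and under 5 processing alternatives (coloured symbols), with dotted lines at 2-fold. *Nfkb1* stays between -1.97 and -1.74, while *Bcl3*, listed at 0 in pro-B cells, moves with the pseudocount and the scale.

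Since FPKM are per length, the levels of the members can be set side by side within a library. The 5 subunits summed to 88.8 FPKM in the pre-pro-B library against 35.9 FPKM in the pro-B library, a 2.48-fold lower sum. The IκB genes *Nfkbia*, *Nfkbib* and *Nfkbie* summed to 39.5 and 33.7, a 1.17-fold lower sum. The ratio of inhibitor to subunit FPKM was therefore 0.445 in the pre-pro-B library against 0.941 in the pro-B library, 2.11-fold apart. It counts all RNA of *Nfkb1* and *Nfkb2* with the subunits, although their products must be processed. The ratio is one of RNA and gives no balance of inhibiting and active protein. Much of this rests on 1 gene. Without *Nfkb1*, the other subunits summed to 40.2 and 22.8, a 1.76-fold difference, and the ratio was 0.984 and 1.48.

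The make-up of the subunit RNA differed accordingly. *Nfkb1* held 54.8% of the summed subunit FPKM of the pre-pro-B library against 36.3% of that of the pro-B library, and the ratio of *Nfkb1* to *Rela* FPKM was 2.18 and 1.05. *Rela* held 25.1% and 34.7%, *Rel* 12.8% and 17.2%, *Nfkb2* 5.17% and 9.31%, and *Relb* 2.17% and 2.54%. Among the IκB genes the make-up was more alike, with *Nfkbia* at 67.5% and 65.0%, *Nfkbie* at 23.8% and 27.3%, and *Nfkbib* at 8.69% and 7.73%. No error can be given for these sums and shares from a single library. In pre-pro-B cells the intervals overlapped for all 28 pairs that the 8 members with a single transcript form, so the order of neighbouring levels is not resolved. In pro-B cells 5 of the 28 pairs did not overlap, each of them a pair with *Bcl3*, whose interval is 0 to 0.

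**Figure D3:**
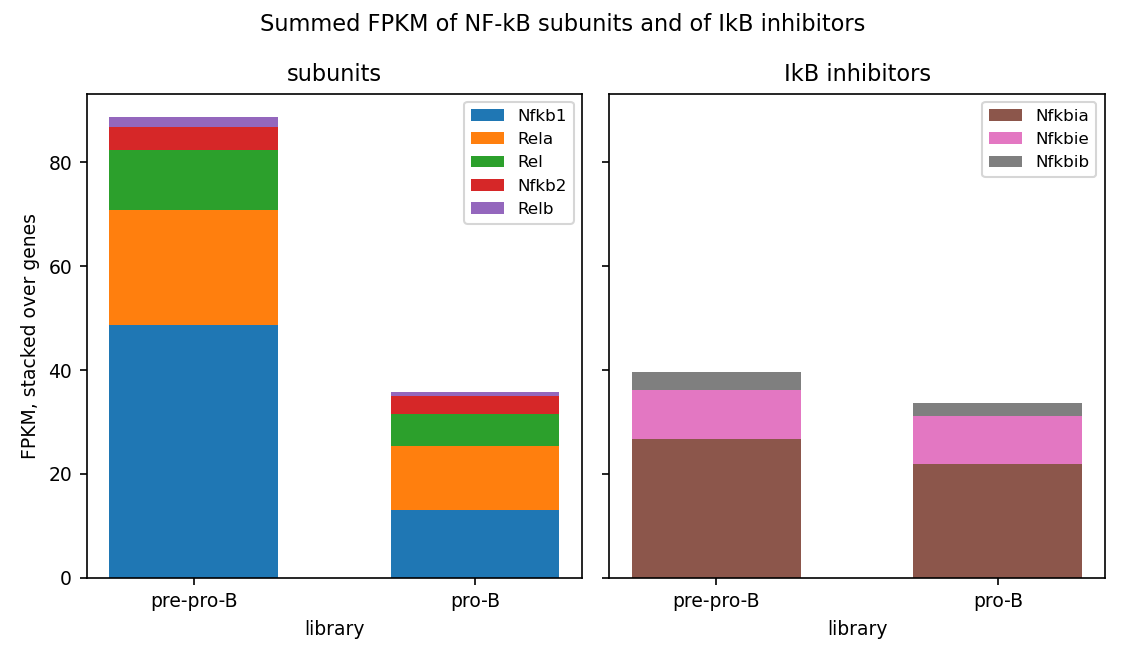
FPKM stacked over the 5 subunit genes (left) and over the 3 IκB inhibitor genes (right) in the pre-pro-B and pro-B libraries, 1 library each, with bars starting at 0. The subunit bars are 88.8 and 35.9 high, and the inhibitor bars are 39.5 and 33.7.

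Other genes of the pathway were described from 6 lists, 71 genes in all, of which 20 were lower by 2-fold or more in pro-B cells and 4 were higher by 2-fold or more. By the same rule, 9.93% of all protein-coding genes were lower and 6.34% higher, and of those that reached 1 FPKM in either library 19.1% and 12.2%. The rule is applied to log2(FPKM + 1), so that a gene at a low level can be within 2-fold by the rule while its FPKM differ by more. The other members of the IκB family were both lower. *Nfkbiz*, a nuclear cofactor like *Bcl3*, summed to 11.0 FPKM in the pre-pro-B library against 4.80 FPKM in the pro-B library, a difference of -1.05. *Nfkbid*, another nuclear member, stood at 4.50 against 1.39 FPKM, a difference of -1.20.

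The genes of the IKK complex all lay within 2-fold by the rule, with differences of 0.12 for *Chuk*, -0.56 for *Ikbkb* and -0.43 for *Ikbkg*. *Chuk*, the kinase subunit used by the alternative pathway, summed to 33.4 FPKM in the pre-pro-B library against 36.3 FPKM in the pro-B library. *Ikbkb*, the kinase subunit of the classical pathway, summed to 27.8 against 18.5 FPKM, and *Ikbkg*, the regulatory subunit, at 26.5 against 19.4 FPKM. *Map3k14*, the kinase that activates the alternative pathway, stood at 2.39 against 1.48 FPKM. Of the 11 genes of the kinase list, 10 lay within 2-fold. The exception was *Map3k8*, a kinase that the *Nfkb1* precursor binds and holds inactive, at 15.8 FPKM (95% limits 0.236 and 32.2) against 0.496 FPKM (95% limits 0 and 1.43), a difference of -3.49.

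Among 17 receptor adaptors and ubiquitin ligases, 4 were lower by 2-fold or more and 0 were higher by 2-fold or more. The lower count is close to the 19.1% of expressed genes. By any amount, 10 were lower and 7 were higher in pro-B cells. Within 2-fold, *Traf6* was higher, at 27.0 FPKM in the pre-pro-B library against 49.5 FPKM in the pro-B library. *Btrc* (9.66 against 17.7 FPKM) and *Rbck1* (13.4 against 24.0 FPKM) were likewise higher within 2-fold. *Malt1*, which links antigen receptors to IKK, stood at 51.4 FPKM (95% limits 5.92 and 97.4) in the pre-pro-B library against 11.6 FPKM (95% limits 0.655 and 22.6) in the pro-B library, a difference of -2.06. *Bcl10*, a binding partner of the *Malt1* product, stood at 32.2 against 20.3 FPKM, within 2-fold. *Ripk1*, a kinase of the tumor necrosis factor receptor complex, stood at 30.9 against 12.1 FPKM, a difference of -1.28. Among 14 deubiquitinases and other brakes, *Tnip2*, a partner of the *Tnfaip3* product, was lower, at 10.7 against 3.99 FPKM, and *Commd1*, which promotes the degradation of the *Rela* product, was higher, at 58.8 against 138 FPKM. The other 12 lay within 2-fold by the rule, although *Tnip1* (6.70 against 3.05 FPKM) and *Pdlim2* (15.4 against 7.19 FPKM) differed by 2.20-fold and 2.14-fold in FPKM.

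The receptors went both ways. *Tnfrsf1a*, a receptor for tumor necrosis factor, stood at 20.1 FPKM (95% limits 0.550 and 43.0) in the pre-pro-B library against 2.15 FPKM (95% limits 0 and 6.36) in the pro-B library. *Il1r1*, the interleukin-1 receptor, summed to 8.75 FPKM against 0.360 FPKM. In contrast, *Tnfrsf13c*, the receptor for the B cell survival factor BAFF, stood at 3.90 FPKM (95% limits 0 and 9.29) against 17.4 FPKM (95% limits 0.705 and 35.1), and *Tlr4*, which senses lipopolysaccharide, stood at 3.07 FPKM (95% limits 0.164 and 5.97) against 16.6 FPKM (95% limits 3.29 and 30.0). The other 6 of the 10 receptors were within 2-fold by the rule. Of these, 4 were under 1 FPKM in both libraries, where the rule cannot call a difference, and *Tnfrsf1b* stood at 7.44 against 3.58 FPKM, 2.08-fold lower.

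Genes known as NF-κB targets in other settings gave the lowest median of the 6 lists, -1.21 over 17 genes, with 10 lower by 2-fold or more, 1 higher and 6 within 2-fold by the rule. Among expressed genes the median was -0.14 and 19.1% were lower by the rule. Of these 6, *Sod2* was abundant and close to equal in the libraries, at 49.4 against 40.2 FPKM. The others were scarce or listed at 0, such as *Tnfaip2* at 0.978 against 0.0455 FPKM and *Vcam1* at 0.146 against 1.03 FPKM. The chemokine *Ccl3* stood at 120 FPKM (95% limits 25.5 and 214) in the pre-pro-B library against 0.384 FPKM (95% limits 0 and 1.25) in the pro-B library, without overlap. *Ccl5* stood at 49.3 against 0.420 FPKM, the adhesion molecule *Icam1* stood at 25.0 against 3.11 FPKM, and the cytokine *Tnf* stood at 5.36 against 0.239 FPKM. The gene that was higher is *Bcl2l1*, which encodes a survival protein, at 4.70 FPKM (95% limits 0.0667 and 13.2) against 62.6 FPKM (95% limits 2.92 and 154). *Il6* and *Cxcl10* were listed at 0 in both libraries. Most of these genes are known to answer to other regulators as well. Intervals did not overlap for 2 of the 95 transcripts of the 6 lists that were above 0 in a library, that of *Ccl3* among them, while the share over all protein-coding transcripts was 3.01%.

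**Figure D4:**
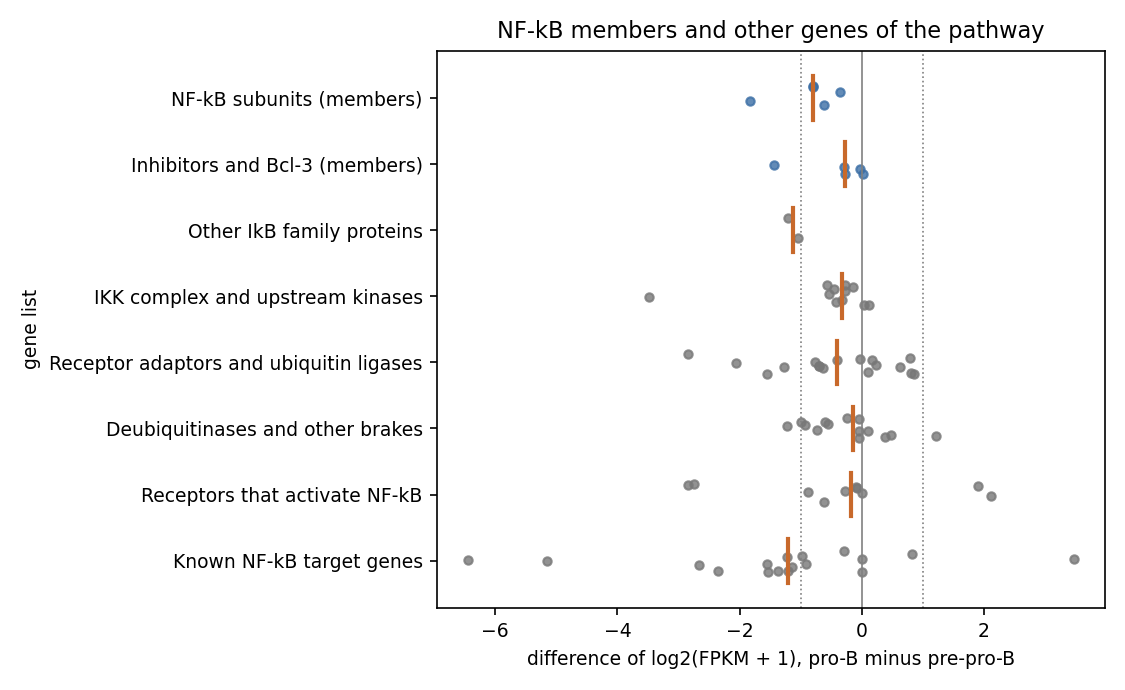
Difference of log2(FPKM + 1), pro-B minus pre-pro-B, for each gene (points) of the subunit and inhibitor lists (blue) and of 6 further lists of the pathway (grey), with the median of each list as an orange bar and dotted lines at 2-fold. Vertical scatter within a list only separates the points. The subunit median is -0.79 and the median of the 17 known targets is -1.21.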

How the data were processed

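RNA depleted of rRNA and of RNAs under 200 nt was sequenced with strand, as single-end 97 bp reads. The authors trimmed the reads, aligned them to mm9 with TopHat, allowing multiple alignments, and estimated RefSeq transcripts with Cuffdiff 2.1.1, using multi-read and bias correction. The deposited values are FPKM per transcript with a 95% interval, not scaled between libraries. The GEO processing notes name TopHat 1.5, and the study's parameter list an earlier release. A further deposited table holds the authors' own fold changes, p-values and q-values and was not used, nor were its 2 per-sample columns.

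RefSeq accessions were matched to symbols with a GRCm38 gene table, used for names only (26555 of 26968 rows). FPKM were summed over the NM_ transcripts of a gene, and 3 genes with a failed quantification were left out. Differences are log2(FPKM + 1), pro-B minus pre-pro-B, which understates the change of low genes, and called means at least 2-fold. There was no test, since each group has 1 library. Gene positions come from GENCODE on mm9 and promoter windows from RefSeq on GRCm38.p6. Named pathway genes reached 5 FPKM in either library and had a difference of at least 1 in size, up to the 4 largest rises and 4 largest falls of a list, plus *Chuk*, *Ikbkb*, *Ikbkg*, *Map3k14*, *Nfkbiz* and *Nfkbid*. *Bcl10*, *Traf6*, *Btrc*, *Rbck1*, *Tnip1*, *Pdlim2*, *Tnfrsf1b*, *Tnfaip2* and *Vcam1* fall outside this rule and were named after their values were seen. The same holds for *Sod2*, *Il6*, *Cxcl10*, *Rps27*, *Ebf1* and *Rag2*. One listed erythroid marker could not be matched to a symbol. Some genes of the lists that meet the rule are counted but not reported here by name. The members and lists were chosen with earlier results of these data known. Python 3.11.15, numpy 2.4.6, pandas 2.3.3 and matplotlib 3.10.9 were used, and the scripts were tested on simulated data. FPKM carry no counts, so read numbers are approximate, from the depth in the labels.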

Additional observations from a re-analysis of the deposited data

How the results depend on the processing

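Other pseudocounts, TPM and median-ratio scaling, the most abundant transcript of each gene and a filter on low FPKM were tried. *Nfkb1*, *Nfkb2*, *Rel*, *Rela*, *Nfkbia* and *Nfkbib* were lower in pro-B cells under all 7 settings, and *Relb* and *Bcl3* under the 6 that kept them. The number of members at least 2-fold lower was 2 or 3, except that requiring 1 FPKM in both libraries, which removes *Relb* and *Bcl3*, left 1. That filter also left 10 of the other pathway genes at least 2-fold lower, against 20 as reported and 28 with a pseudocount of 0.1. *Bcl3*, listed at 0 in pro-B cells, had a difference of -4.19 with a pseudocount of 0.1, of -7.43 with 0.01 and of -2.60 with TPM scaling. Leaving *Nfkb1* out, an alternative chosen after seeing the data, gave inhibitor to subunit ratios of 0.984 for the pre-pro-B library and 1.48 for the pro-B library. Without *Bcl3*, also added later, the median difference of the members was -0.37. TPM scaling shifts every log2 ratio taken without a pseudocount by -0.09, and median-ratio scaling by 0.09. Differences with the pseudocount of 1 can move by other amounts, as from -0.62 to -0.93 for *Relb* under TPM scaling. FPKM from the second deposited table were not run, since its columns name no sample. With 1 library per group no library could be left out. No paired analysis was possible because each group has 1 library.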

Other observations

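Other genes of the pathway also differed between the libraries in how their FPKM was divided among transcripts, and those named here were picked once their shares were known. For *Chuk*, whose gene sum was close to equal in the libraries, NM_001162410 held 11.7% of the summed FPKM of the pre-pro-B library against 34.4% of that of the pro-B library, at 3.90 FPKM (95% limits 0 and 15.3) against 12.5 FPKM (95% limits 0.0122 and 34.2). For *Nfkbiz*, whose gene sum was 2.29-fold lower in pro-B cells, NM_001159395 held 82.0% and 38.2%, at 8.996 against 1.83 FPKM, while NM_001159394 held 18.0% and 61.8%. The deubiquitinase gene *Cyld*, which opposes NF-κB signaling, had NM_173369 at 83.7% and 67.1%. For *Ikbkg*, which has 7 transcripts here, NM_010547 held 78.5% and 66.0%. The intervals of each of these transcripts overlapped between the libraries, and Cuffdiff divides reads that match several transcripts among them, so the shares are estimates without a replicate check.

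The κB consensus was also found in 7 of the 16 promoter windows held for the known target genes, which is 43.8% of them, against 4.51% of all windows. These windows cover 13 of the 17 genes. The genes were listed because they are known targets of NF-κB, so this share is not independent of how they were chosen.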
